A study of Mus musculus with 11 samples.

Results

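Retinoic acid synthesis and response was followed through 9 genes, chosen by symbol: the retinal dehydrogenases Aldh1a1, Aldh1a2 and Aldh1a3, the cellular retinoic acid binding proteins Crabp1 and Crabp2, the nuclear receptors Rara, Rarb and Rarg, and the degrading enzyme Cyp26b1. All 9 were found among the 24062 gene rows of each library, and all 9 passed the filter on low counts. The libraries were RNA-seq of mouse lung mesenchymal cells taken at embryonic day 15, kept for attaching quickly to culture dishes and grown on from there. There were 4 Sp3+/+ (wild-type) libraries (468-4, 685-2, 697-1 and 697-3), 4 Sp3+/- libraries (468-3, 685-5, 685-7 and 697-4) and 3 Sp3-/- libraries (685-1, 697-2 and 697-5). Heterozygous mice were mated to obtain all genotypes, no library carried a treatment, and the Sp3 allele was lost from every cell of the embryo rather than from the mesenchyme alone. The labels do not say whether libraries with the same genotype came from separate embryos, so p-values measure only the spread between these libraries, which may be technical in part.

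Retinoic acid is made from vitamin A. Retinol is oxidised to retinal, and the Aldh1a enzymes oxidise retinal to retinoic acid. Crabp proteins carry the acid within the cell, Rar proteins bind it in the nucleus as heterodimers with Rxr proteins and switch on target genes, and Cyp26 enzymes destroy it. In the early lung, retinoic acid made in foregut mesenchyme is known for its part in the formation of the lung buds. Sp3 is a zinc finger transcription factor that binds GC boxes in promoters.

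Between 9849111 and 59297495 reads were counted on genes per library. Sp3 itself stood at 61.4 to 107.8 CPM (counts scaled to library size) in Sp3+/+, 52.5 to 70.8 in Sp3+/- and 14.8 to 18.8 in Sp3-/- libraries. It thus checked the Sp3-/- labels only, as the Sp3+/+ and Sp3+/- ranges overlapped. The difference between Sp3-/- and Sp3+/+ libraries was -2.30 on the log2 scale (standard error 0.21, edgeR adjusted p = 0.00611). Sample titles also end in a suffix whose meaning is not stated. All 3 Sp3-/- libraries have none, as do 468-4 and 697-4, whereas the other 6 libraries that carry Sp3 have suffix 2 or 3. Genotype and suffix were thus nearly confounded. The 12 lung mesenchyme markers were detected in every library, at a summed 18720 to 31500 CPM in Sp3+/+, 22800 to 28660 in Sp3+/- and 8004 to 20880 in Sp3-/- libraries. Of the 12, 6 were called lower in Sp3-/- than in Sp3+/+, beside 9.77% of all genes tested. The 11 macrophage markers were also detected in every library and summed to 617.5 to 3288 CPM in Sp3+/+, 374.2 to 3061 in Sp3+/- and 3108 to 11330 in Sp3-/- libraries. Their sum followed the suffix too, with 3061 and 3288 CPM in the 2 Sp3-carrying libraries without a suffix and at most 890.9 in the 6 with one. The 9 mesothelial markers with a row in the files summed to 791.9 to 1889 CPM in Sp3+/+, 1595 to 2824 in Sp3+/- and 2308 to 6647 in Sp3-/- libraries. Of these lists, 5 of 11 macrophage, 5 of 9 mesothelial and 3 of 7 tested epithelial markers were called higher in Sp3-/- than in Sp3+/+ libraries. Over all genes tested, 8.76% were called higher. The epithelial list was mixed, with 4 of the 7 tested above 0 and 3 below 0 in log2 fold change. The epithelial markers summed to 20.8 to 47.2 CPM in Sp3+/+, 27.7 to 43.5 in Sp3+/- and 57.0 to 155.6 in Sp3-/- libraries. The part of these cells in the values of the 9 genes was not tested, and in bulk RNA fewer cells of a type and less RNA per cell cannot be told apart.

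Of the 9 genes, Crabp2 was called higher and Crabp1, Rara and Rarg were called lower in Sp3-/- than in Sp3+/+ libraries. Calls were made where the quasi-likelihood test of edgeR gave p below 0.05 after Benjamini-Hochberg adjustment over the 14025 genes that entered it. Of those genes, 8.76% were called higher and 9.77% lower, so that 1 of 9 higher was near this background and 3 of 9 lower was above it. The 9 genes were chosen with earlier results of these data known, so this excess is a description only. With 1 library left out, 0 to 5 members were called lower. In the same comparison, values of 1 member were higher and of 4 members lower in every Sp3-/- library than in any Sp3+/+ library, beside 14.9% and 16.7% of all genes tested. The members' median log2 fold change was -0.81, against -0.003 over all genes tested, but 4 members were above 0 and 5 below. No member was called between Sp3+/- and Sp3+/+ libraries.

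**Figure D1:**
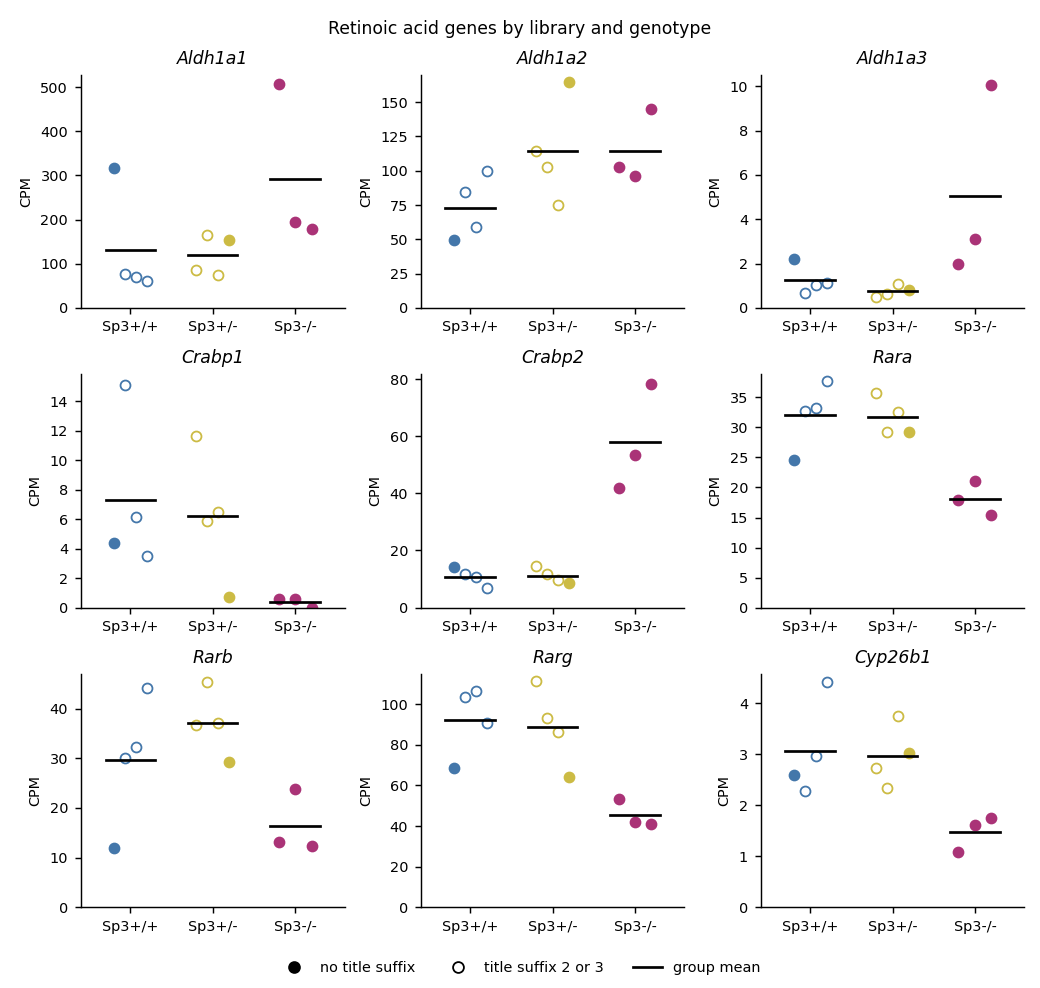
Levels of the 9 genes (CPM, linear axes from 0) in each library by genotype, with filled points for libraries without a title suffix, open points for those with suffix 2 or 3, and bars for group means. Crabp2 is higher and Rara, Rarg, Crabp1 and Cyp26b1 are lower in all 3 Sp3-/- libraries than in any Sp3+/+ library, and the Sp3+/+ library without a suffix stands at the top for Aldh1a1 and at the bottom for Rarb.

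Levels can be set side by side between genes only per exon length, as RPKM, reads scaled to exon length and library size. In Sp3+/+ libraries Rarg had the highest mean of the 9, at 19.96 ± 3.73 RPKM (SD, n = 4). It was followed by Aldh1a2 at 15.8 ± 5.05, Aldh1a1 at 12.3 ± 11.5, Crabp2 at 8.22 ± 2.31, Crabp1 at 5.58 ± 4.07, Rara at 5.10 ± 0.87 and Rarb at 3.54 ± 1.60 RPKM. Among these 7, neighbours in the order overlapped. The order also depends on the lengths used, which join the exons of every annotated isoform. Aldh1a1 was given 10740 bases and Rarg 4629, and by CPM Aldh1a1 had the higher Sp3+/+ mean, 131.8 against 92.4. Cyp26b1, at 0.54 ± 0.17 RPKM, did not overlap Rarb, and Aldh1a3, at 0.22 ± 0.12 RPKM, lay below all Sp3+/+ values of Cyp26b1. The wild-type cultures held RNA for each step from synthesis to degradation, with all 3 receptors above the degrading enzyme. In Sp3+/- libraries Aldh1a2 had the highest mean, at 24.7 ± 8.06 RPKM (n = 4), ahead of Rarg at 19.2 ± 4.22. In Sp3-/- libraries the order of the means differed again, and Crabp2 stood first at 43.8 ± 14.0 RPKM (n = 3), ahead of Aldh1a1 at 27.3 ± 17.2, Aldh1a2 at 24.8 ± 5.75 and Rarg at 9.79 ± 1.47.

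**Figure D2:**
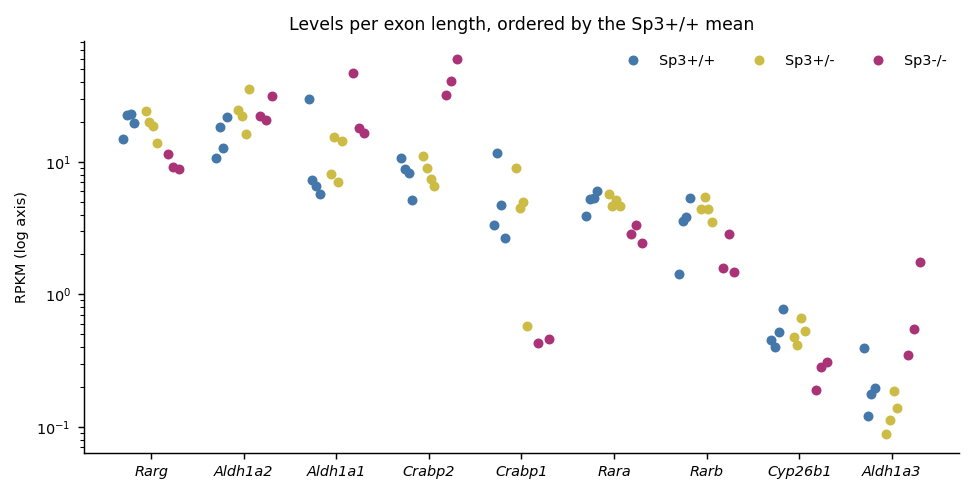
RPKM of the 9 genes on a log axis, ordered by their Sp3+/+ mean, with 1 point per library and a colour per genotype (the Sp3-/- library with no Crabp1 read has no point). Rarg has the highest mean in Sp3+/+ libraries, Aldh1a2 in Sp3+/- libraries and Crabp2 in Sp3-/- libraries, and Cyp26b1 and Aldh1a3 are lowest in Sp3+/+. In single libraries the order differs, as Aldh1a1 leads in 468-4 and 685-1, Aldh1a2 in 697-3 and Rarg in Sp3+/- library 685-7.

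The 3 dehydrogenases make retinoic acid, and none was called between Sp3-/- and Sp3+/+ libraries as tested here. Other settings did call Aldh1a1 or Aldh1a3, as given with each. Aldh1a2, the main retinal dehydrogenase of embryonic mesenchyme, lies at chr9:71215789-71296243 (GRCm38.p6). It measured 49.2, 84.6, 58.7 and 100 CPM in the Sp3+/+ libraries, 114.2, 103.0, 75.3 and 164.4 in Sp3+/-, and 102.9, 96.1 and 145.1 in Sp3-/-. The Sp3+/+ and Sp3-/- ranges met, since library 697-3 lay above 697-2. The log2 fold change in Sp3-/- against Sp3+/+ was 0.65 (standard error 0.27, edgeR adjusted p = 0.12). Against Sp3+/-, it was 0.01 (standard error 0.29, edgeR adjusted p = 0.992), and its sign turned under several other settings. Between Sp3+/- and Sp3+/+ libraries Aldh1a2 had a log2 fold change of 0.64 (edgeR adjusted p = 1). It was the 1 member that passed 0.05 there before adjustment, as did 1.74% of the 14130 genes tested.

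Aldh1a1, at chr19:20492583-20643463 (GRCm38.p6), encodes a retinal dehydrogenase of many adult and fetal tissues. It measured 317.3, 77.8, 70.6 and 61.5 CPM in the Sp3+/+ libraries, 86.5, 166.0, 75.1 and 153.0 in Sp3+/-, and 506.4, 194.8 and 177.8 in Sp3-/-. Library 468-4, which has no suffix, was far above the other 3 Sp3+/+ libraries and above 2 of the 3 Sp3-/- libraries. With it the log2 fold change in Sp3-/- against Sp3+/+ was 1.15 (standard error 0.67, edgeR adjusted p = 0.249), and without it the value was 2.07 (edgeR adjusted p = 0.0129). Without Sp3-/- library 685-1, the highest of all, it was 0.497 (edgeR adjusted p = 0.642). With the first title number as a block it was 1.90 and called (edgeR adjusted p = 0.00607). With the suffix as a covariate it was 0.40 (edgeR adjusted p = 0.688). Against Sp3+/-, where the ranges were apart, it was 1.29 (standard error 0.61, edgeR adjusted p = 0.144), and the call was made without 468-4, which also enters that fit (1.28, edgeR adjusted p = 0.0326). Without 685-1 that difference was 0.633 (edgeR adjusted p = 0.496). The highest Aldh1a1 level stood in Sp3-/- library 685-1, which also had the highest mesothelial marker sum, 6647 CPM. The related gene Aldh1a7 is close to Aldh1a1 in sequence, and reads that aligned to both would not have been counted, so the levels of the pair are uncertain. Aldh1a7 ranged from 2.61 to 11.6 CPM in Sp3+/+ and from 1.61 to 3.67 in Sp3-/- libraries (log2 fold change -1.20, edgeR adjusted p = 0.196).

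Aldh1a3, at chr7:66390892-66427477 (GRCm38.p6), was the least abundant dehydrogenase. It measured 2.22, 0.69, 1.02 and 1.13 CPM in the Sp3+/+ libraries, 0.50, 0.64, 1.06 and 0.80 in Sp3+/-, and 1.98, 3.11 and 10.1 in Sp3-/-. Library 468-4 overlapped the Sp3-/- range from below, and library 697-5 alone set the top of it. The difference from Sp3+/+ was not called (log2 fold change 1.93, standard error 0.63, edgeR adjusted p = 0.0697), although it was without 468-4 (2.33, edgeR adjusted p = 0.0387) and without Sp3-/- library 685-1 (2.31, edgeR adjusted p = 0.0453). Without 697-5 it was 0.993 (edgeR adjusted p = 0.205). It was called by DESeq2 (1.98, adjusted p = 0.0117), with all 11 libraries in a single edgeR fit (1.92, adjusted p = 0.0289) and with the first title number as a block in edgeR (2.28, adjusted p = 0.0263). Against Sp3+/- libraries Aldh1a3 was called higher, 6.35-fold (log2 2.67, standard error 0.57, edgeR adjusted p = 0.0107). That call held whichever of the 11 libraries was removed, with 1.73 as its lowest value, without 697-5 (edgeR adjusted p = 0.0302). With the suffix covariate it was 2.01 (edgeR adjusted p = 0.155). As a share of the summed RPKM of the 3 dehydrogenases, Aldh1a3 took 0.47% to 0.96% in Sp3+/+ and 0.50% to 3.55% in Sp3-/- libraries, and the shares of Aldh1a1 and Aldh1a2 overlapped between all genotypes.

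Against Sp3+/+ libraries the binding proteins had the largest called changes of the 9 genes, in opposite directions. Crabp2, at chr3:87948693-87953372 (GRCm38.p6), delivers retinoic acid to the receptors. It measured 14.2, 11.7, 10.8 and 6.81 CPM in the Sp3+/+ libraries, 14.6, 11.9, 9.77 and 8.61 in Sp3+/-, and 41.9, 53.6 and 78.2 in Sp3-/-. Every Sp3-/- library stood above all 8 others, and the Sp3-carrying libraries without a suffix, at 8.61 and 14.2 CPM, lay within the range of those with one, 6.81 to 14.6. Crabp2 rose 5.34-fold in Sp3-/- against Sp3+/+ (log2 2.42, standard error 0.29, edgeR adjusted p = 0.00776) and 5.16-fold against Sp3+/- (log2 2.37, standard error 0.28, edgeR adjusted p = 0.00126). It passed whichever of the 7 libraries was removed, with log2 fold changes of 2.15 to 2.597, and with the suffix covariate (2.30, edgeR adjusted p = 0.0124). When the suffix of the file name replaced that of the title, a choice made after the data were seen, the value was 2.03 and was not called (edgeR adjusted p = 0.079).

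Crabp1 binds the same ligand and is known for limiting its action in the cytoplasm. It lies at chr9:54764748-54773110 (GRCm38.p6). It measured 4.39, 15.1, 6.17 and 3.49 CPM in the Sp3+/+ libraries, 11.6, 5.86, 6.48 and 0.75 in Sp3+/-, and 0.56, 0.60 and 0 in Sp3-/-. The Sp3-/- values rested on 20, 27 and 0 reads, and a count of 0 in library 697-5 allows up to 0.305 CPM, for counting error only. All Sp3-/- libraries lay below every other library, but Sp3+/- library 697-4, which has no suffix, came close with 15 reads. Crabp1 was 15.5-fold lower in Sp3-/- than in Sp3+/+ libraries (log2 fold change -3.96, standard error 0.80, edgeR adjusted p = 0.0215) and 13.2-fold lower than in Sp3+/- (-3.72, standard error 0.95, edgeR adjusted p = 0.0199). The call against Sp3+/+ was lost without Sp3+/+ library 697-1 (-4.04, edgeR adjusted p = 0.0549), without Sp3-/- library 697-2 (-4.29, edgeR adjusted p = 0.0792) and with the suffix covariate (-2.68, edgeR adjusted p = 0.0773). Without Sp3+/+ library 685-2, the highest, it was -3.37 and still called (edgeR adjusted p = 0.043). The call against Sp3+/- was lost without 697-2 (-4.03, edgeR adjusted p = 0.0654), with the suffix covariate (-1.79, edgeR adjusted p = 0.26), with the first title number as a block (-2.87, edgeR adjusted p = 0.0642) and with limma-voom (-3.62, limma adjusted p = 0.108).

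Summed over both binding proteins, the level was 7.83 to 20.4 RPKM in Sp3+/+, 7.08 to 20 in Sp3+/- and 32.2 to 59.2 in Sp3-/- libraries. Crabp1 took 23.9% to 56.6% of that sum in Sp3+/+ and 8.07% to 44.6% in Sp3+/- libraries, but 0% to 1.33% in Sp3-/- libraries. The Sp3-/- libraries therefore held more binding protein RNA than any other library, nearly all of it Crabp2. These sums and shares are descriptions, with no test of their own.

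The promoter of Crabp1 is shown because Sp3 binds GC boxes and Crabp1 had the widest fall. Promoter windows of 300 bases, from 250 before to 50 after the annotated start, were read from RefSeq for GRCm38.p6, and 7 of the 9 genes matched an entry, all but Crabp2 and Aldh1a3. The letters searched were GGGCGG on either strand, so CCGCCC in the printed strand marks a box on the other one. The Crabp1 window, chr9:54764498-54764797 on the plus strand, held 5 boxes, shown in capitals.

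Crabp1 promoter: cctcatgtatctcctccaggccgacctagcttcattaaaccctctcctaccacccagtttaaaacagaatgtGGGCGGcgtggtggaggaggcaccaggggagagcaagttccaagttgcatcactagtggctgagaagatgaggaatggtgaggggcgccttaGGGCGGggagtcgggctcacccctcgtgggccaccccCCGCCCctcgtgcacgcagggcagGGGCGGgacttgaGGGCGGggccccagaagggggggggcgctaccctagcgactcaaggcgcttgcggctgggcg

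At least 1 GC box stood in 35.7% of all 32851 promoter windows, at least 4 in 5.49% and at least 5 in 2.71%. A match of letters is a description and not a bound site.

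The 3 receptors bind retinoic acid at target genes. Rarg, at chr15:102234938-102257522 (GRCm38.p6), was the most abundant of them. It measured 68.7, 103.8, 106.5 and 90.6 CPM in the Sp3+/+ libraries, 111.4, 93.2, 86.4 and 64.1 in Sp3+/-, and 53.2, 42.0 and 40.8 in Sp3-/-. All 3 Sp3-/- libraries lay below the other 8, while the Sp3-carrying libraries without a suffix, at 64.1 and 68.7 CPM, lay below the 6 with one, 86.4 to 111.4. Rarg was 2.03-fold lower in Sp3-/- than in Sp3+/+ (log2 fold change -1.02, standard error 0.18, edgeR adjusted p = 0.015) and 1.95-fold lower than in Sp3+/- (-0.97, standard error 0.20, edgeR adjusted p = 0.00987). With the suffix covariate the first of these was -0.62 and still called (edgeR adjusted p = 0.0293), and the second was -0.47 and not called (edgeR adjusted p = 0.0776). The call against Sp3+/+ was also lost without Sp3-/- library 697-2 (-0.97, edgeR adjusted p = 0.0659). It was lost as well with the suffix of the file name as the covariate (-0.60, edgeR adjusted p = 0.291) and in the libraries without a title suffix alone (-0.605, edgeR adjusted p = 0.481).

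Rara, at chr11:98927800-98974942 (GRCm38.p6), measured 24.6, 32.7, 33.3 and 37.8 CPM in the Sp3+/+ libraries, 35.7, 29.2, 32.6 and 29.3 in Sp3+/-, and 18.0, 21.0 and 15.4 in Sp3-/-. Again the 3 Sp3-/- libraries were the lowest of the 11, and 468-4 was the lowest of the rest. Rara was 1.76-fold lower in Sp3-/- than in Sp3+/+ libraries (log2 fold change -0.81, standard error 0.18, edgeR adjusted p = 0.0255) and 1.74-fold lower than in Sp3+/- (-0.80, standard error 0.16, edgeR adjusted p = 0.00748). Removing 1 library at a time ended the first call in 5 of 7 fits and left it standing when 468-4 or 685-1 was the one removed. The log2 fold change stayed between -0.941 and -0.709 over the 7, and the adjusted p was 0.0597 to 0.0683 in those 5 (without 685-2, 697-1, 697-3, 697-2 or 697-5) and 0.0623 with the suffix covariate (log2 fold change -0.58). Against Sp3+/-, the call held whichever of the 11 libraries was removed and was lost with the suffix covariate (-0.54, edgeR adjusted p = 0.0885).

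The first annotated promoter windows of Rara and Rarg are shown because both genes were called lower and both windows hold several GC boxes, in capitals. As they were picked by these traits, they are a description, and binding by Sp3 was not tested. The Rara window, chr11:98937446-98937745 on the plus strand, held 4, and the Rarg window, chr15:102257473-102257772 on the minus strand, held 3, of which 2 share a base.

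Rara promoter: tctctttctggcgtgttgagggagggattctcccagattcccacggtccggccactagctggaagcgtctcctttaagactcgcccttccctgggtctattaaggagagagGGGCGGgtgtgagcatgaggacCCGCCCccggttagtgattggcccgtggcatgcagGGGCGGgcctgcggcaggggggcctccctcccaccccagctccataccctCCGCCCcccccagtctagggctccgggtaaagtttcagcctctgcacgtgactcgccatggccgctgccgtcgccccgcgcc
Rarg promoter: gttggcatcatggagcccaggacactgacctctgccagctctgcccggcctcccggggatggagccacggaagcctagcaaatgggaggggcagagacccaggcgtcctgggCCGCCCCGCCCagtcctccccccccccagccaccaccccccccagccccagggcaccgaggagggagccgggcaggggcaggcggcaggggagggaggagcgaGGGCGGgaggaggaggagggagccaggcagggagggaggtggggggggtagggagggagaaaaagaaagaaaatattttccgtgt

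The Cyp26b1 window also held 3 GC boxes, whereas the windows of Aldh1a1, Aldh1a2 and Rarb held none. Rara and Rarg have further annotated starts, and the other Rarg window held no box. Of the 3 other Rara windows, 1 nearly coincides with the first and held the same 4 boxes, 1 held none and 1 held 1.

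Rarb, at chr14:16430839-17082331 (GRCm38.p6), encodes the receptor whose own transcription retinoic acid is known to raise. It measured 11.8, 30.1, 32.3 and 44.2 CPM in the Sp3+/+ libraries, 36.7, 45.3, 37.1 and 29.3 in Sp3+/-, and 13.2, 23.8 and 12.3 in Sp3-/-. Library 468-4, the Sp3+/+ library without a suffix, was the lowest of all 11, below every Sp3-/- library. Rarb was not called in Sp3-/- against Sp3+/+ libraries (log2 fold change -0.83, standard error 0.45, edgeR adjusted p = 0.216), although it was without 468-4 (-1.09, edgeR adjusted p = 0.0342) and with the first title number as a block (-1.10, edgeR adjusted p = 0.0296). With the suffix covariate the value was 0.05 (edgeR adjusted p = 0.948), which turned its sign. Against Sp3+/- libraries, where the ranges did not meet, it was -1.17 (standard error 0.39), with an edgeR adjusted p of 0.0501 just outside the threshold. It fell to 0.0106, 0.0439 and 0.0499 without 468-4, 697-3 and 697-4, and the block, DESeq2 and 2 other scalings also called it, with adjusted p of 0.0121 to 0.0478. The value was -0.47 with the suffix covariate (edgeR adjusted p = 0.447).

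The Rarb promoter window, chr14:16575427-16575726 on the minus strand, is shown because it holds the kind of element through which retinoic acid receptors act. That element is a direct repeat of a hexamer with 5 bases between its copies, searched on both strands with the hexamer AGGTCA or its variant AGTTCA, and likewise GGGTCA or its variant GGTTCA, in any pairing. The repeat found is in capitals and starts 53 bases before the annotated start.

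Rarb promoter: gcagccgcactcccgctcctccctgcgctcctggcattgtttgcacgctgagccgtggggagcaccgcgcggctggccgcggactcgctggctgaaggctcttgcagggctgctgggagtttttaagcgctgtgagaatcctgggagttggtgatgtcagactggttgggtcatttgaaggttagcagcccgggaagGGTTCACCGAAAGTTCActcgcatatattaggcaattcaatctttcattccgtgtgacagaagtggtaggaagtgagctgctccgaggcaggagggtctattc

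Of all 32851 windows, 0.0974% held such a repeat, and among the members' windows only this one did.

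The proportions of the receptors overlapped between the genotypes. Rarg took 63.4% to 73.6% of their summed RPKM in Sp3+/+, 62.9% to 70.5% in Sp3+/- and 59.5% to 72.2% in Sp3-/- libraries. Rara took 16.5% to 19.4%, 15.4% to 21.2% and 17.9% to 21.9% in the same order. The sum itself did not overlap, at 20.2 to 32.2 RPKM in Sp3+/+, 22 to 34.1 in Sp3+/- and 12.7 to 15.9 in Sp3-/- libraries. As above, these are descriptions.

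Cyp26b1, at chr6:84571414-84593908 (GRCm38.p6), hydroxylates retinoic acid for its removal. It measured 2.59, 2.28, 2.97 and 4.41 CPM in the Sp3+/+ libraries, 2.73, 2.35, 3.76 and 3.04 in Sp3+/-, and 1.09, 1.61 and 1.74 in Sp3-/-. The Sp3-/- libraries were below all others, and the Sp3-carrying libraries without a suffix, 2.59 and 3.04 CPM, lay within the range of those with one. The difference from Sp3+/+ was just outside the threshold (log2 fold change -1.07, standard error 0.33, edgeR adjusted p = 0.0596), and the difference from Sp3+/- was called (-1.02, standard error 0.29, 2.03-fold lower, edgeR adjusted p = 0.03). Without 468-4 the first was called (-1.15, edgeR adjusted p = 0.047), as it was with the first title number as a block (-1.12, edgeR adjusted p = 0.0288) and by DESeq2 (-1.07, adjusted p = 0.0178). Limma-voom with the consensus correlation also called it (-1.13, limma adjusted p = 0.0399). So did edgeR with all 11 libraries in a single fit (adjusted p = 0.0232) and with the upper quartile (adjusted p = 0.0477). It was not called by limma-voom alone (limma adjusted p = 0.0544) or with the suffix covariate (-0.95, edgeR adjusted p = 0.147). The second was lost without 468-3, 685-7, 685-1 or 697-2, with adjusted p of 0.051, 0.083, 0.0881 and 0.0756 in edgeR, and with the suffix covariate (-0.95, edgeR adjusted p = 0.162). Between 17 and 73 reads stood behind each Sp3-/- value. The other family members, Cyp26a1 and Cyp26c1, never exceeded 5 and 8 reads in a library and were not tested.

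Against Sp3+/- libraries, 6 of the 9 genes were called, Crabp2 and Aldh1a3 higher and Crabp1, Rara, Rarg and Cyp26b1 lower, beside 13.0% of all 14130 genes called higher and 12.5% called lower. This comparison and the one with Sp3+/+ share the Sp3-/- libraries and are not independent. With the suffix covariate Crabp2 was the only member still called (2.38, edgeR adjusted p = 0.0185). Between Sp3+/- and Sp3+/+ libraries edgeR called 0.0% of all genes, and DESeq2 and limma-voom called no member either. Log2 fold changes of the members there ran from -0.75 for Aldh1a3 to 0.64 for Aldh1a2, and all 9 overlapped. Sp3 itself was -0.49 in that comparison (standard error 0.16, edgeR adjusted p = 1).

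**Figure D3:**
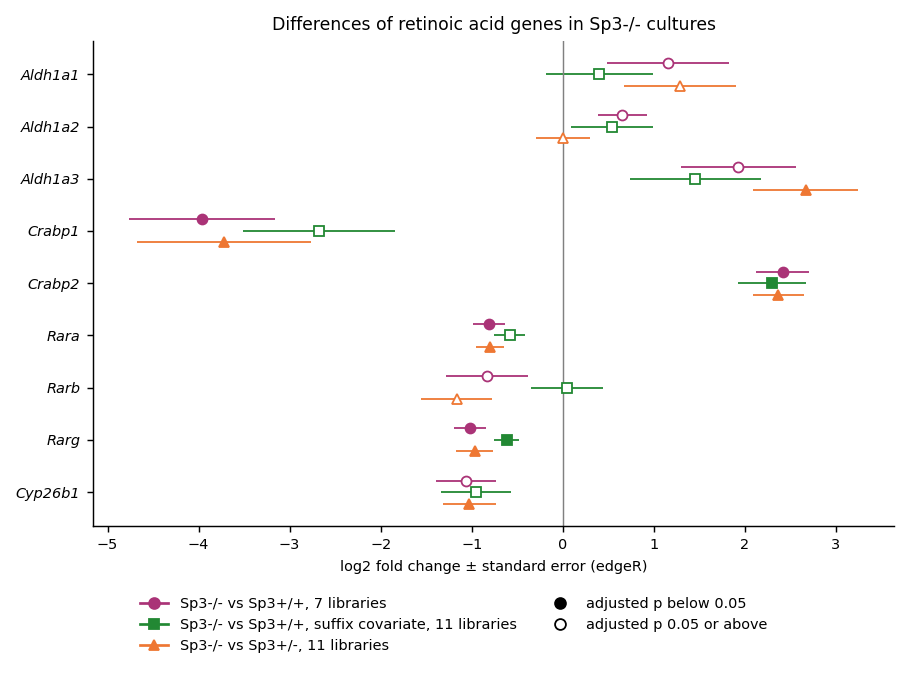
Log2 fold changes with standard errors of the 9 genes in Sp3-/- against Sp3+/+ libraries, in the same comparison with the title suffix as a covariate, and in Sp3-/- against Sp3+/- libraries, filled where the adjusted p was below 0.05. Crabp2 is filled in all 3, Rarg in both comparisons without the covariate and in the first with it, and Rarb moves from -0.83 to 0.05 with the covariate.

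Other genes that handle vitamin A were followed in a list of 32, of which 25 were tested. In Sp3-/- against Sp3+/+ libraries 5 were called higher and 2 lower, beside 8.76% and 9.77% of all genes tested, with a median log2 fold change of 0.045 against -0.003 over all genes. The higher ones were Stra6, the membrane receptor for retinol uptake (2.92-fold, edgeR adjusted p = 0.0437, on at most 34 reads in a library), Fabp5, a fatty acid binding protein that can also carry retinoic acid (3.21-fold, edgeR adjusted p = 0.0363), Rdh14, a retinol dehydrogenase (1.41-fold, edgeR adjusted p = 0.0469), Rxra, a partner of the retinoic acid receptors (1.75-fold, edgeR adjusted p = 0.0229), and Ncoa3, a nuclear receptor coactivator (1.84-fold, edgeR adjusted p = 0.0177). Rxra rose from 85.3 to 110.2 CPM in Sp3+/+ to 123.9 to 189.3 in Sp3-/- libraries, while Rarg and Rara were lower there. Rxrb stood at 44.4 to 50.3 and 46.5 to 53.1 CPM in the same groups (log2 fold change 0.04, edgeR adjusted p = 0.759), and Rxrg never exceeded 12 reads.

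The 2 lower ones were Dhrs4, a retinal reductase (1.58-fold, edgeR adjusted p = 0.033), and Bcmo1, the symbol in the files for Bco1, which cleaves beta-carotene to retinal. Bcmo1 had 113 reads over the Sp3+/+ libraries and 2 over the Sp3-/- libraries, a ratio of 46.9 per read sequenced with an exact 95% counting interval of 12.7 to 392.0. It was called (edgeR adjusted p = 0.0169), though its fitted fold change depends on the prior count. Of the genes named by rule and not called, Rdh10, the main retinol dehydrogenase of the embryo, was lower in every Sp3-/- library, at 14.7 to 18.45 CPM, than in any Sp3+/+ library, at 18.53 to 25.7 (log2 fold change -0.46, edgeR adjusted p = 0.0706). Dhrs3, a retinal reductase that retinoic acid is known to raise, had a log2 fold change of 0.64 (edgeR adjusted p = 0.134). With the suffix covariate Ncoa3 (0.84, edgeR adjusted p = 0.0345) and Bcmo1 (edgeR adjusted p = 0.0286) were still called, and Rxra (0.67, edgeR adjusted p = 0.0546), Fabp5 (0.96, edgeR adjusted p = 0.112), Rdh14, Dhrs4 and Stra6 were not. With the suffix of the file name in its place, neither Ncoa3 (0.91, edgeR adjusted p = 0.106) nor Bcmo1 (edgeR adjusted p = 0.0773) was called. Most of these calls were also lost when single libraries were removed. Of 7 such fits, Rdh14 was called in 1, Fabp5, Rxra and Dhrs4 in 2 each, Ncoa3 in 4 and Bcmo1 in 6, and Stra6 was called in none of the 6 that tested it. With the first title number as a block, Stra6 was the 1 of the 7 genes not called (1.53, edgeR adjusted p = 0.0739). Against Sp3+/- libraries 6 of the 25 tested pathway genes were called higher and 4 lower, beside 13.0% and 12.5% of all genes. Fabp5, Rxra, Ncoa3, Dhrs4 and Bcmo1 were called there in the same directions as before. Stra6 (1.49-fold, edgeR adjusted p = 0.42) and Rdh14 (1.28-fold, edgeR adjusted p = 0.0695) were not, and Rdh10 was called lower (-0.49, edgeR adjusted p = 0.0189).

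Genes known to respond to retinoic acid, a list of 18 with 15 tested, held 3 called lower and none called higher by edgeR, beside 9.77% and 8.76% of all genes tested. Before adjustment 9 of the 15 passed 0.05, as did 37.6% of all genes. Their median log2 fold change was -0.84 against -0.003 over all genes, and 13 of the 15 were below 0. The list does not hold every such gene. Dhrs3 (0.64) and Rarb (-0.83), also known to be raised by retinoic acid, are outside it, and neither was called. Crabp2 (2.42, edgeR adjusted p = 0.00776) and Stra6 (1.55, edgeR adjusted p = 0.0437), likewise known to be raised by it and outside the list, were called higher. The 3 listed genes called lower were Hox genes, which pattern the body axis and include direct targets of the receptors. Hoxa2 stood at 6.75 to 14.0 CPM in Sp3+/+ and 2.00 to 3.88 in Sp3-/- libraries (3.91-fold lower, edgeR adjusted p = 0.0153). Hoxa5, known for its part in lung mesenchyme, stood at 34.0 to 70.1 and 11.3 to 23.3 CPM (3.03-fold lower, edgeR adjusted p = 0.0253). Hoxb2 stood at 18.8 to 27.1 and 11.7 to 13.5 CPM (1.79-fold lower, edgeR adjusted p = 0.0156). All 3 ranges were apart, and Hoxa2 (-1.36, edgeR adjusted p = 0.0229) and Hoxb2 (-0.70, edgeR adjusted p = 0.0271) stayed called with the suffix covariate, while Hoxa5 did not (-1.10, edgeR adjusted p = 0.0608). With the suffix of the file name neither Hoxa2 (-1.22, edgeR adjusted p = 0.119) nor Hoxb2 (-0.60, edgeR adjusted p = 0.146) was called. With 1 library removed, Hoxa2 was called in all 7 fits, Hoxb2 in 6 and Hoxa5 in 3. With the title suffix as the covariate, the list's median was -0.36 and its count of lower calls was again 3. Without 468-4 the count was 8, and without Sp3-/- library 697-2 it was 1. Against Sp3+/- libraries 8 of the 15 were called lower and none higher, beside 12.5% and 13.0% of all genes.

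**Figure D4:**
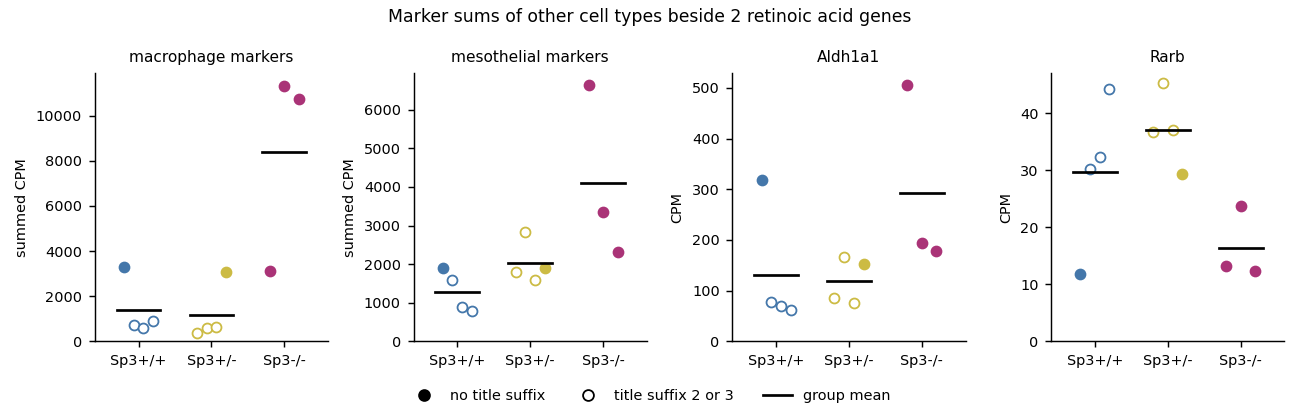
Summed CPM of macrophage markers and of mesothelial markers, and CPM of Aldh1a1 and Rarb, in each library by genotype, with filled points for libraries without a title suffix and bars for group means. Macrophage sums are at least 3061 in all 5 libraries without a suffix and at most 890.9 in the 6 with one, and the Sp3+/+ library without a suffix is apart from the other Sp3+/+ libraries for both genes.

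The genes whose pattern over the 11 libraries lay nearest to 3 members were found by the smallest root mean square difference of mean-centred log2 CPM, among 11203 genes. For Crabp2 these were H2-T23 (0.35), H2-K1 (0.36) and Anxa8 (0.36), of which the H2 genes belong to a family of near-copies whose counts are uncertain. For Aldh1a1 they were Cadm4 (0.26), Folr1 (0.32) and Scel (0.33). For Rarb they were Hic1 (0.27), Pik3c2b (0.30) and Islr (0.31), and Hic1 is also on the list of responsive genes. These differences are small by selection, as the smallest among 11203 genes, and were not compared with a background. The ranges of the members were 3.51 log2 units for Crabp2, 3.04 for Aldh1a1 and 1.93 for Rarb.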

How the data were processed

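Total RNA of 11 cultures was sequenced with TruSeq libraries as 50 bp single end reads. The authors checked reads with FastQC 0.10.1, aligned them to mm10 with STAR 2.4.5a and counted them with htseq-count; the deposited values are whole-number counts per gene symbol, with no normalization. The annotation version and strand setting are not given in the sources used here. Tallies of reads outside genes, 38.4% to 40.9% of each library's total, were left out, most being alignments that were not unique (30.1% to 33.7%). Groups came from the genotype labels.

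A gene entered a test if its CPM exceeded 1 in any 1 of the libraries fitted. The quasi-likelihood test of edgeR 4.0.16 (robust fit, R 4.3.3) followed TMM normalization, and calls were made at a Benjamini-Hochberg adjusted p below 0.05. Sp3-/- against Sp3+/+ used 7 libraries, and comparisons with Sp3+/- used all 11. Standard errors were derived from the fold change and the F statistic. The study's own method, limma-voom (limma 3.58.1) with a consensus correlation, was an alternative, as was DESeq2 1.42.0. The first title number gave a consensus correlation of 0.106 in the first comparison. CPM per library uses TMM-scaled sizes, and log2 CPM a prior count of 2. RPKM used union exon lengths of GENCODE M39, which include every annotated isoform, so orders and shares by RPKM depend on them. Coordinates and promoters are RefSeq's for GRCm38.p6, the assembly of mm10. No libraries of a genotype agreed within counting noise (lowest chi-square per degree of freedom 15.8).

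The members and lists were chosen with earlier results of these data known. Named were all members, called genes of the lists (at most 8 each by size), Sp3, Aldh1a7, Rxra, Rxrb, Rxrg, Cyp26a1, Cyp26c1, Rdh10, Dhrs3 and Stra6, and, by likeness, 3 genes for each of the 3 members with the widest range and a mean above 2 log2 CPM. Markers appear as lists, and 1 further gene named by this rule is not reported here. The endothelial, erythroid, and neural crest and glia lists had 1 of 7, 1 of 1 and 0 of 3 tested genes called in Sp3-/- against Sp3+/+, all higher, beside 8.76% of all genes tested. Muc16 had no row, and Emr1 stood for Adgre1.

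The edgeR script was tested on simulated data for Sp3-/- against Sp3+/+ with 200 changed genes among 14025. It recovered 44 of 100 changed 2-fold and 78 of 100 changed 4-fold, none with the wrong sign, with 9 false calls, so changes of 2-fold were often missed at this number of libraries.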

Additional observations from a re-analysis of the deposited data

Results flagged for a closer look

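Aldh1a1 in Sp3+/+ library 468-4 stood apart from the other 3 libraries of its genotype. It measured 8.31 log2 CPM there and 6.28 in the next library, a gap of 0.857 of the group's whole range, above Dixon's 95% limit for 4 samples. Of 20 pairs of gene and group of 4 looked at, this was the 1 beyond the limit, and chance gives about 1 in 20. Library 468-4 is also the 1 Sp3+/+ library without a title suffix and had a macrophage marker sum of 3288 CPM and a mesothelial marker sum of 1889 CPM, the highest of its genotype for both. The part of these in the Aldh1a1 value was not tested.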

How the results depend on the processing

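Crabp2 kept its direction in every alternative run, and no alternative called a member between Sp3+/- and Sp3+/+ libraries. For Sp3-/- against Sp3+/+, the main counts were 1 member higher and 3 lower, 5 other pathway genes higher and 2 lower, and 3 responsive genes lower. DESeq2 gave 2 members higher and 4 lower, 6 pathway genes higher and 4 lower, and 8 responsive genes lower. Limma-voom with the consensus correlation gave 4 members lower, 6 pathway genes higher and 4 lower, and 4 responsive genes lower. The upper quartile gave 4 members lower, and keeping every gene with a count gave 2 pathway genes higher. All 11 libraries in a single fit gave 2 members higher and 4 lower, 7 pathway genes higher and 5 lower, and 8 responsive genes lower. Some smaller shifts of these counts are not listed. The first title number as a block gave 3 members higher and 5 lower, 4 pathway genes lower and 9 responsive genes lower. The title suffix as a covariate gave 1 member lower, 3 pathway genes higher, a responsive median of -0.358 and a Rarb value of 0.049. With libraries without a suffix only, 0 members and 0 listed genes were called, the responsive median was -0.183, Sp3 was -2.43 and no longer called, Aldh1a1 was -0.121 and Rarb 0.471; 1 Sp3+/+ library was left there and was assumed to vary like the others. Bcmo1 could not be tested in that fit, and Stra6 in 1 fit that left out a library.

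Alternatives chosen after the data were seen were the suffix of the file name, which differs from the title for 697-4, and the suffix covariate without 468-4. The first gave 0 members called, 0 pathway genes higher and 1 lower, 0 responsive genes lower with a median of -0.177, Aldh1a1 at -0.114 and Rarb at 0.487. The second gave 0 calls in each of these, Sp3 at -1.99 and no longer called, and Aldh1a2 at -0.36. In Sp3-/- against Sp3+/-, the title suffix covariate gave 1 member higher and 0 lower (main 2 and 4). There Aldh1a2 was 0.005 and turned to -0.066 with the upper quartile, -0.16 with the block, -0.063 with the covariate, and -0.042, -0.151 and -0.197 without 685-5, 685-7 and 697-5, in a leave-one-out range of -0.197 to 0.233.

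With 1 library left out, Sp3-/- against Sp3+/+ gave 1 to 3 members higher and 0 to 5 lower, 0 to 5 pathway genes higher and 0 to 5 lower, and 1 to 8 responsive genes lower, with medians of -1.04 to -0.74. The most lower calls came without 468-4 and the fewest without 697-2. Against Sp3+/- it gave 2 to 3 members higher and 2 to 5 lower, fewest without 697-2. The cause of these shifts was not tested. By replicate number, no paired analysis was possible because these numbers only follow the order of the samples. The block used above was the first title number, which the labels do not explain. Crabp1, Bcmo1 and Stra6 rest on few reads.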
